A study of Danio rerio with 93 samples.

Results

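Zebrafish embryos exposed to Solvent Red 169 were compared with the unexposed embryos of 3 other dyes, as a way of reading this anthraquinone dye against controls other than its own. The set holds 15 of the 93 embryos in the study, which are all the embryos labelled as exposed to Solvent Red 169, with 3 embryos at each of 5 nominal concentrations (1 µM, 5 µM, 11.2 µM, 35.6 µM, 50 µM). They were set, as one group, against the 12 control embryos of Disperse Blue 14, Disperse Red 9 and Solvent Yellow 33, with 4 embryos per dye. The 4 Solvent Red 169 control embryos were kept as a further reference. All were single whole embryos of the Tropical 5D wild-type line at 48 hours post-fertilization (hpf), dechorionated and held one per well. Exposed embryos had received the dye in dimethyl sulfoxide (DMSO), and control embryos are labelled as 0.64% DMSO. Each library was therefore 1 embryo. The labels do not give clutch, plate or time of collection for single embryos, so p-values measure the spread between these embryos and a difference between exposed embryos and another dye's controls cannot be told apart from a difference between the dye series. Of the 15 exposed libraries, 12 carried a second sequencing index that no control library of these comparisons carried, 2 shared theirs with the 4 Disperse Red 9 controls, and 1 shared it with the Solvent Red 169 controls.

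Anthraquinone dyes are flat aromatic molecules, and compounds of that shape can bind the aryl hydrocarbon receptor (AhR), a ligand-activated transcription factor. The bound receptor enters the nucleus, pairs with Arnt and turns on cytochrome P450 genes of the CYP1 family, of which cyp1a is the usual readout in fish. At 48 hpf the embryo has a beating heart and circulating red cells, a lens that is filling with crystallins and a retina in which the first photoreceptors mature. The molecular clock is a loop in which Clock and Bmal drive the per, cry and nr1d1 genes, whose products then repress the loop, and in fish it is set directly by light. Cortisol acts through the glucocorticoid receptor on a small group of strongly responsive genes, among them FKBP5, KLF9 and PER1. Gene symbols are given as the name table writes them, many of them in the capitals of the human ortholog.

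Depth was alike in the 3 groups. Estimated counts summed to between 24270922 and 41167329 per exposed embryo, to between 25902442 and 48188027 per control embryo of the other dyes, and to between 27634445 and 42739897 per Solvent Red 169 control. No pair of libraries was near sampling noise, the smallest mean chi-square per gene over 465 pairs being 13.5. Marker genes of a whole embryo were present in all 31 libraries, with krt4 of the skin at 5790 to 16700 CPM (counts scaled to the library total) and the neuronal gene ELAVL4 at 154 to 956 CPM. The hatching enzyme gene he1.3 did not exceed 1.33 CPM, but other hatching gland genes were present. The mean log2(CPM + 1) of that list was 5.27 to 5.7 in exposed embryos and 5.1 to 5.76 in controls of the other dyes. Several control libraries stood apart from the rest, however. The library labelled Disperse Blue 14 control R1 held 1350 CPM of CYP1A1 (the zebrafish cyp1a gene), and those labelled Solvent Red 169 control R1 and R2 held 169 and 195 CPM. Disperse Red 9 control R1 and R2 held 50.9 and 45.9 CPM, and every other control library of the 16 lay between 3.42 and 6.51 CPM. The same 3 libraries of highest CYP1A1 held 0.822, 0.136 and 0.117 CPM of the lens gene crygm2d11, against 21.9 to 163 CPM in the other 13 controls. In the principal components of all 31 embryos, Disperse Blue 14 control R2 and Disperse Red 9 control R4 lay farthest out on the second axis, which carried 14.3% of the variance, and Solvent Red 169 control R1 and R2 were 2 of the 3 farthest on the first, which carried 33% of it. Counts of DEGs are therefore also given without some of these libraries. Why they differ was not tested.

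Differentially expressed genes (DEGs) were those with a fold change above 1.5 and a Benjamini-Hochberg adjusted p below 0.05 in edgeR's quasi-likelihood test. The exposed embryos differed from the 12 controls of the other dyes in 617 of the 17171 genes tested, or 3.59%. Of these, 169 genes (0.984%) were higher and 448 (2.61%) lower in exposed embryos, and the median log2 fold change of all genes tested was -0.02. The sets of embryos overlapped in nearly every gene: 8 of the 17171 genes (0.0466%) had all 15 exposed embryos on one side of all 12 controls, and 3 of those 8 were also DEGs. These 3 were nes, which was higher in exposed embryos, and NR1D1 and MYLIP, which were lower. Without Disperse Blue 14 control R2 and Disperse Red 9 control R4, the libraries farthest out on the second axis, 305 genes were called. Without these and the other dyes' 3 control libraries of high CYP1A1, 404 were called, of which 269 were among the 617. Leaving out single embryos gave between 315 DEGs, without Disperse Blue 14 control R2, and 985, without the 50 µM embryo R4.

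Clock and glucocorticoid-responsive genes were among those with the lowest p-values, and every DEG among them was lower in exposed embryos. In the clock list, 6 of 31 tested members fell and none rose, with a median log2 fold change of -0.19. In the glucocorticoid list, 2 of 15 fell and none rose, with a median of -0.21. That list also holds the receptor genes NR3C1 and NR3C2, the hormone genes CRH and POMC, and the steroid synthesis genes STAR, CYP17A1 and cyp11c1. Its count and median are therefore not those of glucocorticoid-responsive targets alone, and PER1 was counted in the clock list. Of all genes tested, 2.61% were called lower. Over 20 alternatives the clock count was 4 to 8 and the glucocorticoid count 1 to 3. The 2 called in the second list were FKBP5 and KLF9. Its other members, among them NR3C1, sgk1 and PCK1, were not called, and 11 of the 15 had a log2 fold change below 0. FKBP5 encodes an Hsp90 co-chaperone that dampens the glucocorticoid receptor and is itself one of its targets. Its level was 1.28 to 5.79 CPM in the 15 exposed embryos, with a median of 1.61, against 2.46 to 67.6 CPM in the 12 controls of the other dyes, with a median of 14.3. The exposed embryos were below every one of those controls in 11 cases, and the control libraries that reached into the exposed range were Disperse Blue 14 R1 at 2.46 CPM and Disperse Red 9 R4 at 3.33 CPM. The log2 fold change of FKBP5 was -3.26 (SE 0.406), with an adjusted p of 1.6e-05. KLF9, a zinc-finger transcription factor induced by glucocorticoids, was at 0.18 to 1.42 CPM in exposed embryos, with a median of 0.714, and at 0.428 to 8.87 CPM in the controls, with a median of 2.40. It fell by 2.15 on the log2 scale (SE 0.354, adjusted p = 0.00053).

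NR1D1, which encodes the clock repressor Rev-erb alpha, showed no overlap at all. Its highest exposed embryo had 0.606 CPM and its lowest control 0.625 CPM, with medians of 0.255 CPM in exposed embryos and 1.40 CPM in controls of the other dyes. The log2 fold change of NR1D1 was -2.46 (SE 0.266), and the adjusted p was 4.9e-06. NR1D1 was scarce in these libraries, at 2 to 18 counts per exposed embryo and 22 to 98 counts per control. CRY1, a cryptochrome of the repressor arm, was at 3.8 to 5.97 CPM in exposed embryos and at 5.7 to 25.6 CPM in controls, and 13 of 15 exposed embryos were below every control. CRY1 fell by 1.39 on the log2 scale (SE 0.194, adjusted p = 7e-05). PER1 has 2 annotated copies, and both fell: the more abundant one, ENSDARG00000012499, averaged 37.4 ± 4.67 CPM in exposed embryos (SD, n = 15) and 71.1 ± 31.4 CPM in the controls (SD, n = 12), which is -0.92 on the log2 scale (SE 0.154, adjusted p = 0.00059). The other 2 clock genes called were nfil3-6, a bZIP repressor, at -0.80 and aanat2, the pineal enzyme of melatonin synthesis, at -0.59.

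**Figure D1:**
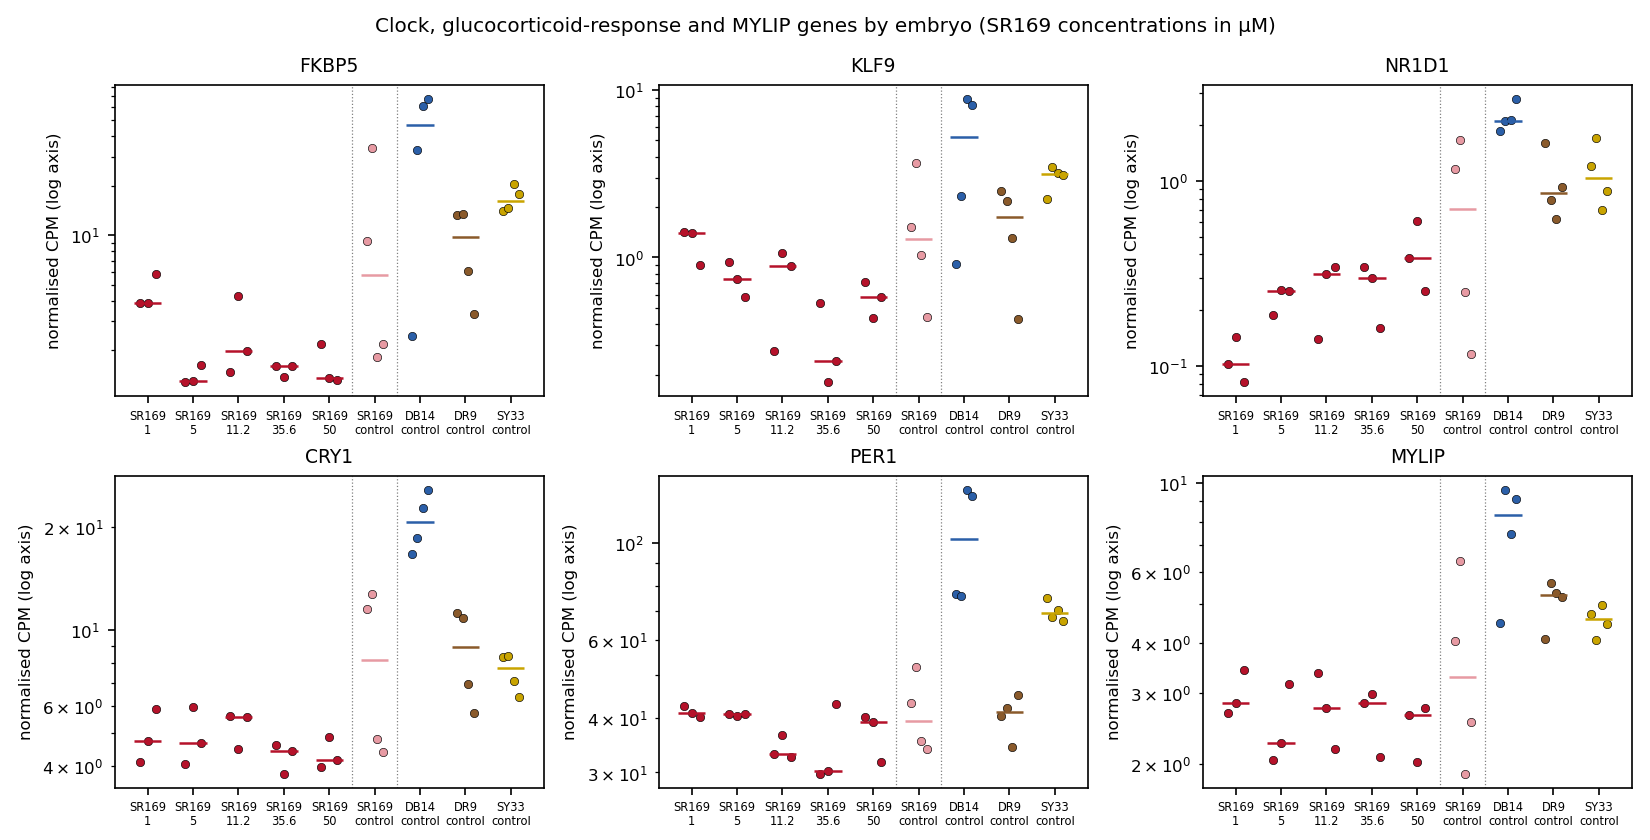
Normalised CPM (log axis) of FKBP5, KLF9, NR1D1, CRY1, PER1 (ENSDARG00000012499) and MYLIP. Each point is 1 embryo and each line a group median, with the 5 Solvent Red 169 (SR169) concentrations in µM left of the controls of SR169, Disperse Blue 14 (DB14), Disperse Red 9 (DR9) and Solvent Yellow 33 (SY33). FKBP5 lay between 1.28 and 5.79 CPM in exposed embryos and reached 67.6 CPM in the DB14 controls.

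The size of these differences depended on which dye's controls were used. With each concentration and each control series as its own group, FKBP5 was lower in exposed embryos than in the Disperse Blue 14 controls with a log2 fold change of -4.29, while the value was -2.10 against the Disperse Red 9 controls and -3.00 against the Solvent Yellow 33 controls. For the abundant PER1 copy the values were -1.46, -0.12 and -0.91 in the same order of dyes, so the Disperse Red 9 controls, at 34.3 to 45.1 CPM, lay in or just above the exposed range of 29.8 to 42.9 CPM. NR1D1 was lower against each of the 3, at -3.21, -2.04 and -2.24. FKBP5, KLF9, NR1D1 and CRY1 stayed DEGs under every alternative that tested them, leave-outs of single embryos included, with FKBP5 between -3.65 and -2.48 and CRY1 between -1.64 and -0.78. PER1 ENSDARG00000012499 lost its call without the Disperse Blue 14 control series, through a fold change below 1.5 (-0.56).

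The Solvent Red 169 controls did not form one group in these genes. FKBP5 was 9.25, 33.8, 1.83 and 2.19 CPM in their replicates R1, R2, R3 and R4, and NR1D1 was 1.16, 1.67, 0.252 and 0.116 CPM. CRY1 was 11.5, 12.7, 4.81 and 4.4 CPM. In each of these genes R3 and R4 were within the range of the 15 exposed embryos, while R1 and R2 were above it. R1 and R2 are also the controls with 169 and 195 CPM of CYP1A1. Over all 4, exposed embryos were lower than their own controls, at -2.35 on the log2 scale for FKBP5 (adjusted p = 0.0059) and -1.61 for NR1D1 (adjusted p = 0.0093). Without R1 and R2 neither passed, and the values were 0.20 for FKBP5 (adjusted p = 0.99) and 0.52 for NR1D1 (adjusted p = 0.96).

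MYLIP and ponzr3 had equally low p-values. MYLIP encodes a ubiquitin ligase that in mammals marks the LDL receptor for degradation. It was at 2.02 to 3.43 CPM in exposed embryos and at 4.06 to 9.6 CPM in the controls of the other dyes, without overlap, and fell by 1.11 on the log2 scale (SE 0.136, adjusted p = 1.6e-05). Solvent Red 169 control R1 to R4 had 4.05, 6.38, 1.89 and 2.54 CPM of MYLIP. ponzr3, of the family of small cysteine-rich Plac8-related proteins, was at 3.39 to 11.5 CPM in exposed embryos. In 11 of the 12 controls of the other dyes it was at 15.8 to 31.2 CPM, and Disperse Blue 14 control R1 alone was lower, at 1.93 CPM. ponzr3 fell by 2.01 on the log2 scale (SE 0.234, adjusted p = 7.9e-06), and without that library by 2.13 (adjusted p = 3.6e-10). The Solvent Red 169 controls had 14.4, 12.8, 4.37 and 4.89 CPM of ponzr3 in R1 to R4, so R1 and R2 lay above all 15 exposed embryos and R3 and R4 within their range. Further DEGs chosen by the same rule were rbp7a, a cellular retinol-binding protein, at -1.88, and PFKFB4, which sets the level of the glycolytic activator fructose 2,6-bisphosphate, at -0.69, with bicdl2l at -1.12. All 3 had 12 or 13 of 15 exposed embryos below every control.

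Fewer genes rose, and the differences were smaller. nes encodes nestin, an intermediate filament of neural progenitors. It was at 93.4 to 141 CPM in exposed embryos, with a median of 113.2, against 55.8 to 88.1 CPM in the 12 controls, with a median of 74.2, and the groups did not overlap. Its log2 fold change was 0.65 (SE 0.0757, adjusted p = 7.9e-06). All 4 Solvent Red 169 controls, at 112 to 125 CPM, lay with the exposed embryos, and nes did not pass the test between exposed embryos and their own controls (log2 fold change -0.05, adjusted p = 0.72). KCNK5 (ENSDARG00000023587), a potassium channel gene, was at 43.2 to 153 CPM in exposed embryos and at 23.8 to 67.5 CPM in controls of the other dyes. It rose by 1.12 on the log2 scale (SE 0.171, adjusted p = 0.00023), and 11 of 15 exposed embryos were above every control. ncam3, a neural cell adhesion gene, rose by 0.87 (SE 0.141, adjusted p = 0.00045). Its range was 9.18 to 17.8 CPM in exposed embryos and 2.8 to 10.6 CPM in the controls. ncam3 was also called higher in exposed embryos than in their own 4 controls, which had 5, 3.68, 7.84 and 12.8 CPM (log2 fold change 0.81, adjusted p = 0.017). That call was lost without own control R1 and R2 (0.32, adjusted p = 0.96), and R4 lay within the exposed range. brca2, of homologous recombination repair, was the 1 DEG among 33 tested DNA repair genes, beside 3.59% of all genes called. brca2 was higher in exposed embryos by 0.60. Further genes that rose were znf1163, a zinc-finger gene, at 0.67, GCNT4, a glucosaminyltransferase of mucin-type glycans, at 0.81, zmat1 at 0.65 and gucy2g, a receptor guanylate cyclase, at 0.76. Among gene list members, sult1st7, a cytosolic sulfotransferase gene, rose by 1.09 (adjusted p = 0.028) and tmprss15, a transmembrane serine protease gene, by 1.15 (adjusted p = 0.019). Both were scarce, at 0.894 ± 0.436 and 0.978 ± 0.426 CPM in exposed embryos (SD, n = 15) and 0.416 ± 0.293 and 0.441 ± 0.301 CPM in controls of the other dyes (SD, n = 12). The call of tmprss15 was lost with the 4 Solvent Red 169 controls added (0.34, adjusted p = 0.54), and that of sult1st7 without the Solvent Yellow 33 series (0.83, adjusted p = 0.08). Both calls were also lost without the embryos at 1 µM and without those at 35.6 µM. Against own control R3 and R4 alone, exposed embryos were at -0.28 on the log2 scale for KCNK5, -0.13 for brca2 and -0.62 for gucy2g. The values were -0.11 for zmat1, 0.0053 for znf1163 and 0.092 for GCNT4, and none of these genes passed the adjusted threshold. KCNK5 and ncam3 stayed DEGs under every alternative tried, and nes under all but 2, which took its fold change below 1.5 (0.58 without the Disperse Blue 14 control series and 0.44 with the 4 Solvent Red 169 controls added).

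**Figure D2:**
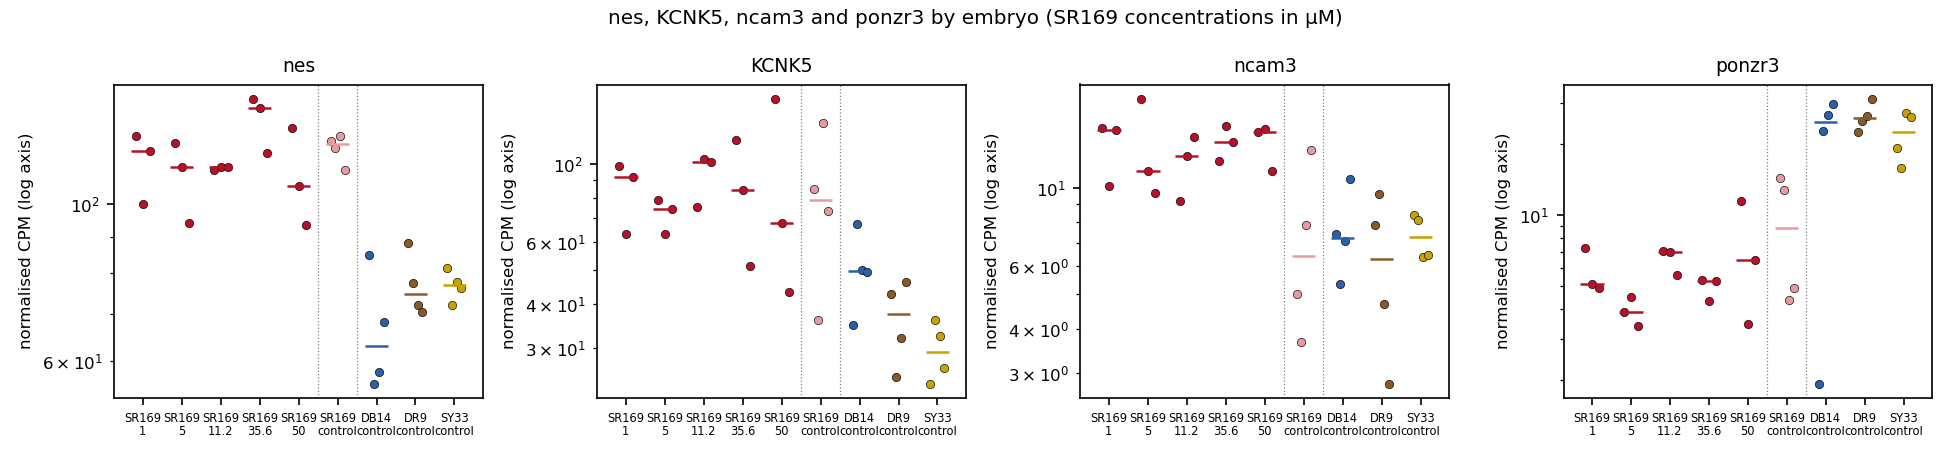
Normalised CPM (log axis) of nes, KCNK5, ncam3 and ponzr3 in each embryo, with SR169 concentrations in µM left of the 4 control series and lines at group medians. All 4 SR169 controls lay with the exposed embryos for nes (112 to 125 CPM), and DB14 control R1 was the one low control for ponzr3 (1.93 CPM).

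CYP1A1 changed with concentration. In edgeR's trend fit over the 15 exposed embryos alone, which uses no control, 1 of 17630 genes passed (0.00567%), and that gene was CYP1A1. DESeq2 called 35 genes in the same trend, and edgeR with the replicate block 61. It was at 2.92, 3.94 and 5.14 CPM at 1 µM and at 5.1, 5.08 and 7 CPM at 5 µM. At 11.2 µM it was at 8.18, 11.2 and 12.4 CPM, at 35.6 µM at 15.8, 22.6 and 27.4 CPM, and at 50 µM at 24.9, 27.4 and 36.3 CPM. The 3 embryos at 35.6 µM were thus all above the 3 at 11.2 µM, which were all above those at 5 µM, and neighbouring groups overlapped at the lowest and the highest step. The slope was 0.53 on the log2 scale per doubling of concentration (SE 0.0456, adjusted p = 9.6e-06), and it stayed between 0.51 and 0.58 with any 1 of the 15 embryos left out. Between 1 and 180 genes passed the trend test in those leave-outs, the 180 without the 50 µM embryo R3. No other member of the AhR list passed in this edgeR fit. The sister CYP1 genes cyp1c1 and cyp1c2 had slopes of 0.07 each (adjusted p = 0.48 and 0.44), and CYP1B1 had 0.00 (adjusted p = 0.98). FOXQ1, another member, had 78, 66 and 43 counts at 1 µM, 82, 100 and 98 at 5 µM and 93, 93 and 80 at 11.2 µM. It had 74, 121 and 147 counts at 35.6 µM and 142, 120 and 218 at 50 µM. The controls of the other dyes had 66 to 395 counts of FOXQ1. These counts are not scaled to the library total.

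**Figure D3:**
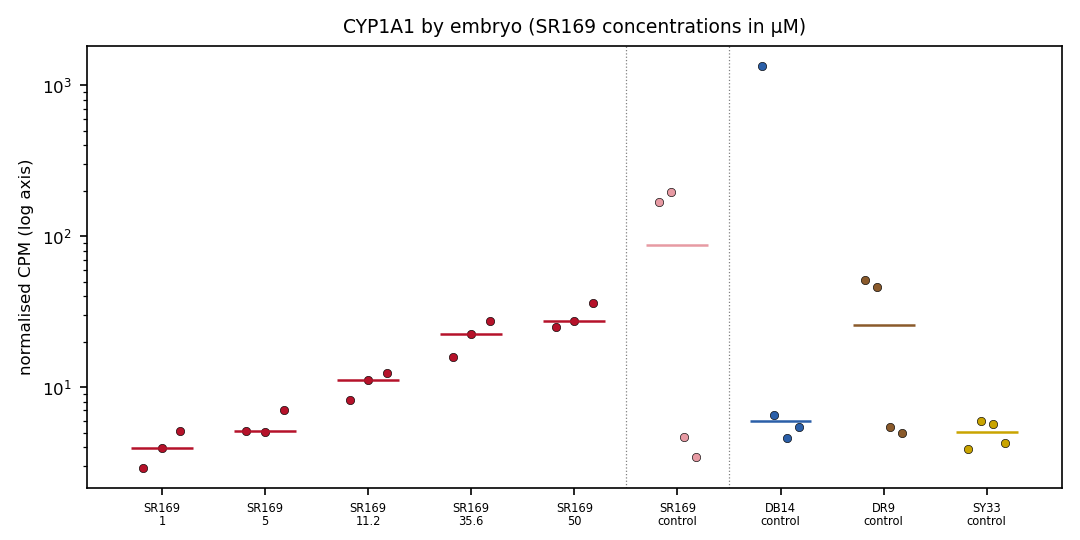
CYP1A1 in each embryo, as normalised CPM on a log axis, with SR169 concentrations in µM left of the 4 control series and lines at group medians. The level climbed with concentration, with 2.92 to 5.14 CPM at 1 µM and 24.9 to 36.3 CPM at 50 µM, while 5 of the 16 control libraries stood far above the others, the highest at 1350 CPM.

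Against the controls of the other dyes the same gene was called lower, and that call rested on 1 library. CYP1A1 was at -3.11 on the log2 scale (SE 0.861, adjusted p = 0.02), and Disperse Blue 14 control R1 held 1350 CPM. Without that library the value was 0.13 (adjusted p = 0.88). The Solvent Yellow 33 controls, at 3.91 to 5.99 CPM, contained no high library, and the exposed embryos at 11.2 µM and above all exceeded them. cyp1c1 and cyp1c2 were also called lower, at -1.37 and -1.06, and Disperse Blue 14 control R1 held 547 CPM of cyp1c1 and 86.1 CPM of cyp1c2. In the other 11 controls cyp1c1 was at 8.49 to 31.2 CPM and in exposed embryos at 17.5 to 42.5 CPM. Those 3 genes were the DEGs among the 14 AhR members tested, beside 3.59% of all genes called. The receptor genes ahr1a, ahr1b and ahr2 and the partner genes arnt and ARNT2 did not pass the test, with log2 fold changes between -0.16 and 0.18.

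Many lens crystallins were called lower. Of 43 lens crystallins tested, 29 fell and none rose, beside 2.61% of all genes called lower. Their median log2 fold change was -0.77. Gamma-M crystallins made up most of these, with 21 crygm2d genes among the 29. Those genes are close copies that can share reads, so they are not 21 separate measurements. crygm2d11, the crystallin with the largest change, was at 8.8 to 17.5 CPM in exposed embryos. In the Disperse Blue 14 controls crygm2d11 was at 0.822, 163, 102 and 84.7 CPM, in the Disperse Red 9 controls at 23.9, 46.3, 31.5 and 23.2 CPM and in the Solvent Yellow 33 controls at 26.6, 32.5, 37.5 and 29.4 CPM. It fell by 1.90 on the log2 scale (SE 0.349, adjusted p = 0.0015). Solvent Red 169 control R3 and R4, at 23.9 and 21.9 CPM, were above all 15 exposed embryos, and R1 and R2, at 0.136 and 0.117 CPM, far below them. Against R3 and R4 alone, crygm2d11 in exposed embryos was at -0.77 on the log2 scale and did not pass edgeR's test (adjusted p = 0.96). Beta crystallins, including CRYBA4 at -1.07 and CRYBB1 at -0.98, were among the DEGs as well. The group's mean level, as mean log2(CPM + 1), was 5.86 to 6.59 in exposed embryos and 5.73 to 7.95 in the controls, where the lowest was Disperse Blue 14 control R1 and the highest R2. Solvent Red 169 control R3 and R4, at 6.44 and 6.45, lay within the exposed range for the whole list. R1 and R2, at 5.05 and 5.5, lay below it.

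Of 33 photoreceptor and retina genes, 11 fell and none rose, with a median of -0.36, beside 2.61% of all genes called lower. opn1lw2, the red cone opsin, was at 1 to 3.39 CPM in exposed embryos and at 1.23 to 17.5 CPM in controls, and fell by 1.52 on the log2 scale (SE 0.294, adjusted p = 0.0021). The short-wavelength opsin OPN1SW averaged 0.284 ± 0.2 CPM in exposed embryos (SD, n = 15) and 1.49 ± 1.82 CPM in controls (SD, n = 12), at -2.37 (SE 0.49, adjusted p = 0.0034). Both cone arrestins annotated as ARR3, the rod transducin subunit GNAT1, the recoverin genes RCVRN and rcvrna, and rbp3, which carries retinoids between photoreceptors and pigment epithelium, also fell. The mean log2(CPM + 1) of this list was 2.83 to 3.2 in exposed embryos. In Solvent Red 169 control R1 to R4 it was 1.93, 1.83, 3.17 and 2.82. The list's median log2 fold change was -0.77 for own controls against the other dyes' controls and 0.29 for exposed embryos against their own controls. With the 2 outlying libraries of the second axis left out, 13 crystallins and 7 photoreceptor genes were called lower, beside 1.14% of all genes in that comparison. With all 5 control libraries left out the counts were 22 and 11, beside 1.63% of all genes. Without the whole Disperse Blue 14 series they were 11 and 6, beside 1.45%, and with the 4 Solvent Red 169 controls added they were 6 and 4, beside 2.63%. In whole embryos fewer cells of a type and less RNA per cell cannot be told apart.

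**Figure D4:**
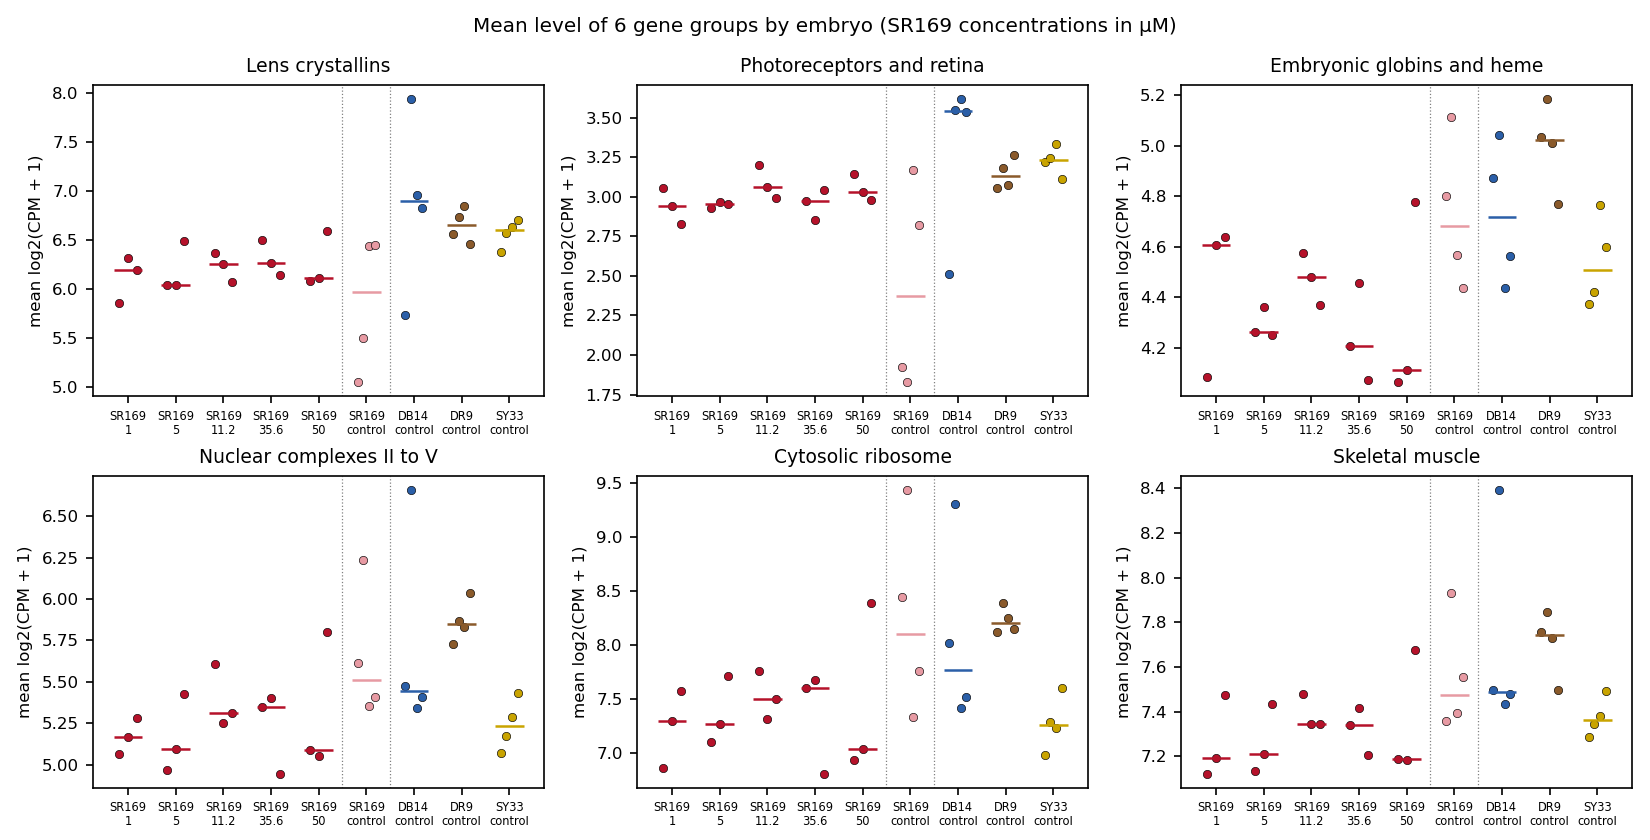
Mean log2(CPM + 1) of the tested members of 6 gene groups in each embryo, with SR169 concentrations in µM left of the 4 control series and lines at group medians. Exposed embryos spanned 5.86 to 6.59 for lens crystallins, while 1 DB14 control reached 7.95, and the DR9 controls lay above the SY33 controls for complexes II to V, ribosome and muscle.

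Genes of red blood cells were lower as well. Of 24 genes in the list of embryonic globins and heme synthesis, 9 fell and none rose, with a median of -0.36. With all 12 controls, 2.61% of all genes tested were called lower. The count was 2 without the Disperse Red 9 series (median -0.24), beside 1.57% of all genes. It was 3 without the 5 control libraries (median -0.13), beside 1.63% of all genes. alas2, the first enzyme of heme synthesis in erythroid cells, was at 33.4 to 66.3 CPM in exposed embryos, with a median of 45.2, against 59.5 to 116 CPM in the controls of the other dyes, with a median of 85.4. In 13 of 15 exposed embryos alas2 was below every control, and it fell by 0.90 on the log2 scale (SE 0.122, adjusted p = 5.7e-05). The nucleotidase gene nt5c2l1 fell by 1.12 (SE 0.151, adjusted p = 4.7e-05), and epb41b, of the red cell membrane skeleton, by 0.64. The alpha globin genes hbae3, hbae1.1, hbae1.2, hbae1.3 and hbae4 fell too, with hbae3 at 290.5 ± 174 CPM in exposed embryos (SD, n = 15) and 771 ± 521 CPM in controls (SD, n = 12) and a log2 fold change of -1.41. The globins are close copies and may share reads. alas2 and nt5c2l1 stayed DEGs under every alternative, whereas the call of hbae3 was lost without the Disperse Red 9 control series and without the 5 control libraries (-0.84, adjusted p = 0.096). For alas2 the Solvent Red 169 controls had 47.2, 75.5, 53.6 and 42.5 CPM, and its test against exposed embryos did not pass (log2 fold change -0.23, adjusted p = 0.32). Of 13 ferritin and iron genes, 4 fell, all of them fthl genes (fthl28, fthl29, fthl30 and fthl31). Without the Disperse Blue 14 series 2 of the 13 were called, beside 1.45% of all genes called lower. None was called without the 5 control libraries, beside 1.63% of all genes.

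Counts of genes of respiration, translation and muscle called lower varied widely with the embryos compared. Of 54 nuclear genes of respiratory complexes II to V, 17 fell and none rose (median -0.45), and of 44 nuclear complex I genes 9 fell (median -0.37). Among cytosolic ribosomal proteins 12 of 74 fell (median -0.57), and among skeletal muscle genes 6 of 44 (median -0.28). These 4 counts stand beside 2.61% of all genes called lower. cox6b1, a subunit of cytochrome c oxidase, averaged 14.6 ± 4.41 CPM in exposed embryos (SD, n = 15) and 28.6 ± 19.5 CPM in the controls (SD, n = 12), at -0.97 on the log2 scale (SE 0.22, adjusted p = 0.0064). RPL5, of the large ribosomal subunit, was at 35.9 to 166 CPM in exposed embryos and at 77.1 to 569 CPM in controls, at -1.21 (SE 0.247, adjusted p = 0.0031). Without Disperse Blue 14 control R2 and Disperse Red 9 control R4, no complex I gene and 1 gene each of complexes II to V, the cytosolic ribosome and skeletal muscle were called lower, beside 1.14% of all genes. Without the Solvent Yellow 33 series the counts were 19 for complex I, 31 for complexes II to V, 58 for the ribosome and 14 for muscle, beside 6.4% of all genes. With the 4 Solvent Red 169 controls added they were 9, 21, 43 and 5, beside 2.63% of all genes. In those controls, R1 to R4, the mean log2(CPM + 1) of the ribosome list was 8.45, 9.44, 7.33 and 7.76. Exposed embryos had 6.81 to 8.39, so only R2 and R1 lay above their range. DESeq2 called 27 ribosomal genes, and its share of all genes is not given here. The 13 genes encoded in the mitochondrial genome gave no DEG with edgeR or DESeq2 (3 were at an unadjusted p below 0.05) and a median of 0.23, and their share of all counts was 7.22% to 13% in exposed embryos against 2.54% to 11.08% in the controls of the other dyes. The lowest of those controls was Disperse Blue 14 R2. Among all 17171 genes tested with edgeR, 5257 were at an unadjusted p below 0.05.

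**Figure D5:**
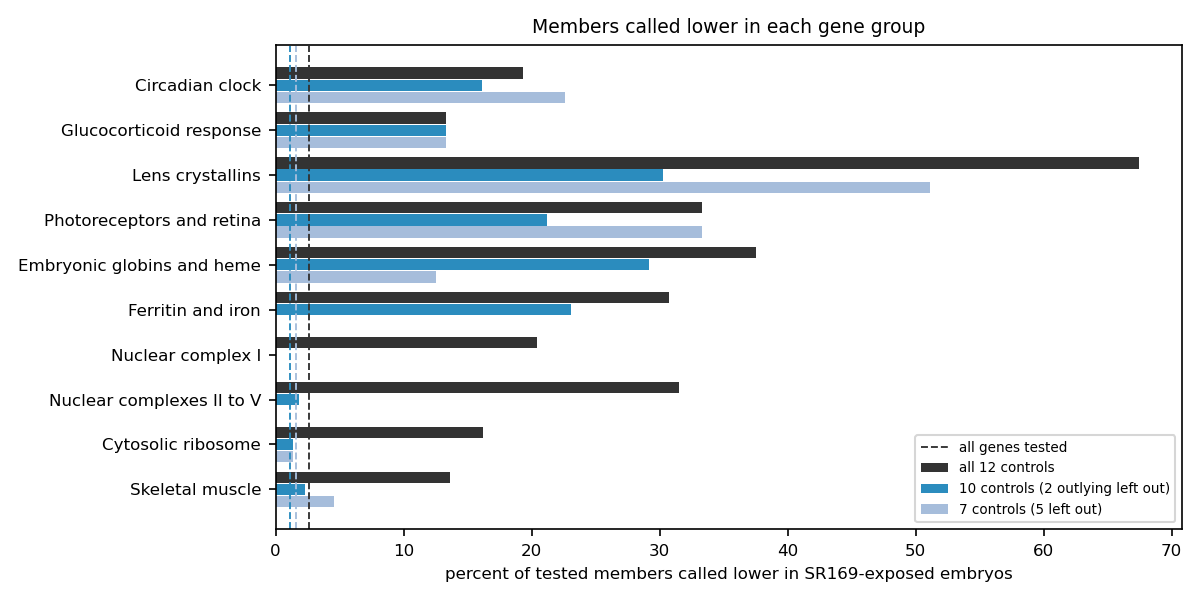
Percent of the tested members of 10 gene groups called lower in exposed embryos, with all 12 controls of the other dyes and with 2 or 5 control libraries left out. Dashed lines mark the percent of all genes tested that were called lower in each case (2.61%, 1.14% and 1.63%), and the respiratory, ribosomal and muscle groups dropped near or below them with 10 controls.

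Other groups had 7 DEGs or fewer, beside 2.61% of all genes called lower. Of 56 keratins and claudins 7 fell, including krt15 at -0.87 and cldn7a at -0.79, and of 28 pigment cell genes 5 fell, including pnp4a at -0.77, a purine enzyme of iridophores. Without the 2 outlying control libraries 2 keratins and claudins and 1 pigment cell gene were called, and without all 5 libraries 2 of each. Of 47 genes of glycolysis and the citric acid cycle 4 fell, and none was called without the 2 libraries or without the 5. Among 32 genes of retinoid metabolism 3 fell, and among 15 of liver secretion also 3, with 3 and 1 called without the 5 libraries. Without the 2 outlying libraries 1 retinoid metabolism gene was called lower. RBP4 is counted in both lists. Of 20 genes of oligodendrocytes and glia 2 fell and the others were not called. The list's median was -0.06, and 14 of the 20 had a log2 fold change below 0. The 2 were mbpa, myelin basic protein, at -2.04 (SE 0.378, adjusted p = 0.0015) and cldnk, a claudin of myelinating glia, at -0.99. cldnk is also counted among the 7 keratins and claudins. The counts of mbpa in R1 to R4 were 2, 193, 261 and 285 in the Disperse Blue 14 controls. They were 48, 31, 68 and 95 in the Disperse Red 9 controls and 40, 104, 82 and 38 in the Solvent Yellow 33 controls. Its mean was 0.699 CPM in exposed embryos, 2.88 CPM in the 12 controls and 0.667 CPM in the Solvent Red 169 controls. That last mean covers counts of 0, 0, 64 and 28 in R1 to R4, while exposed embryos had 8 to 37 counts. In the lipoprotein list APOB rose by 0.62, at 3230 ± 642.5 CPM in exposed embryos (SD, n = 15) and 2096 ± 579 CPM in controls (SD, n = 12), while apoea fell by 0.91. Of 21 cholesterol synthesis genes SQLE, squalene epoxidase, and LSS, lanosterol synthase, fell by 0.71 and 0.60. Of 71 neural transcription factors, neurog1 rose by 0.64 and NEUROD2 and sox21a fell by 0.83 and 0.67. No DEG was found among the 23 Nrf2 targets, 25 p53 targets, 21 genes of the Atf4 amino acid response, 21 cytosolic heat shock genes, 39 DNA replication genes, 25 interferon-response genes or 46 Hox genes tested with edgeR, with 4, 7, 7, 8, 6, 5 and 11 of them at an unadjusted p below 0.05. Among all 17171 genes tested with edgeR, 5257 were at an unadjusted p below 0.05. DESeq2 called 3 genes in these 7 lists. A group with no DEG is not thereby shown to be unaffected.

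Split by concentration, the comparison gave few DEGs. Against the 12 controls of the other dyes, 2 genes were called at 1 µM (0.0111%), none at 5 µM (0%), 1 at 11.2 µM (0.00557%), 98 at 35.6 µM (0.545%) and none at 50 µM (0%). At an unadjusted p below 0.05 there were 2777, 1903, 1336, 2854 and 1028 genes in the same order, and DESeq2 called 63, 60, 39, 357 and 27 genes. NR1D1 was 1 of the 2 genes at 1 µM, with si:dkey-63j12.4 as the other, and eevs was the gene at 11.2 µM. Of the 98 genes at 35.6 µM, 54 were higher and 44 lower, and 44 were also among the 617 of the pooled comparison. With any 1 of the 3 embryos at 35.6 µM left out, between 0 and 18 genes were called. A smaller group also lowers the power of the test, so these counts do not show what the 98 rested on. nes was higher by 0.65, 0.58, 0.61, 0.85 and 0.57 on the log2 scale at the 5 concentrations, from low to high, without an order among them. The log2 fold changes of NR1D1 were -3.68, -2.61, -2.43, -2.42 and -1.81, and its trend with concentration did not pass (0.27 per doubling, adjusted p = 0.39).

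Set against their own 4 controls, the exposed embryos gave 3664 DEGs of 17943 genes (20.4%), with 1340 higher and 2324 lower. The own controls in turn differed from the controls of the other dyes in 2943 genes (16.4%), with 1575 higher and 1368 lower. The comparisons share embryos. Both counts rested on Solvent Red 169 control R1 and R2, the libraries with 169 and 195 CPM of CYP1A1. Without this pair, exposed embryos against the remaining own controls gave 0 DEGs with edgeR (856 at an unadjusted p below 0.05), and the remaining own controls against the other dyes' controls gave 29. With 1 own control left out, the first count was 73 without R2, 1231 without R1 and 6074 without R3, and the second 963, 942 and 5071 in the same order. The second index, which is confounded with dye in most libraries, was held constant in 6: the 2 exposed embryos at 50 µM and the 4 Disperse Red 9 controls that share it gave 0 DEGs of 17626 genes (0%) with edgeR, 405 genes at an unadjusted p below 0.05, and 11 with DESeq2. In these 6, ponzr3 had a log2 fold change of -2.43 (unadjusted p = 6e-05), FKBP5 -2.79, MYLIP -1.11, alas2 -1.31, NR1D1 -1.24, nes 0.34 and KCNK5 0.58, none of them past the adjusted threshold. With 2 exposed embryos against 4 controls the test has less power than the pooled one. The count of 0 therefore does not show what the pooled DEGs rested on.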

How the data were processed

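RNA was sequenced from single 48 hpf embryos after poly-A selection. The authors trimmed reads with Trim Galore 0.6.5, quantified transcripts with Salmon 1.1.0 on GRCz11 (Ensembl release 97) and deposited estimated counts per gene, 62.2% of which are whole numbers. These expected counts were rounded. The deposited tables of log2 CPM per dye were not used. Of 19913 genes, 19164 had a symbol in the name table supplied.

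Counts were filtered with filterByExpr, scaled by TMM and tested with the quasi-likelihood F test of edgeR 4.0.16 (R 4.3.3, legacy form), with Benjamini-Hochberg adjustment over all genes tested. The SE printed with an edgeR log2 fold change is its absolute value divided by the square root of the F statistic, as the test itself gives no SE. DESeq2 1.42.0 was an alternative. The pooled comparison used 27 embryos in 2 groups. Own controls were tested in a fit of 31 embryos in 3 groups, concentrations in a fit of 27 embryos in 6 groups, and the trend on log2 concentration over 15 embryos, where a call needed an adjusted p below 0.05 with no fold limit. Printed CPM values carry the TMM factors of the 31 embryos. A list's level is the mean of log2(CPM + 1). The fits were tested on simulated data with known changes and independent embryos. Those data held no difference between dye series and no outlying library. They therefore do not show how the calls behave where such differences are present.

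Named genes were those DEGs with a symbol that is no clone name and a mean of at least 1 CPM. The 8 largest rises and 8 largest falls without overlap between the groups came first, and where fewer passed the places were filled by lowest adjusted p. To these were added up to 3 DEGs of lowest p per gene list (no CPM minimum), or the 2 members of lowest p where a list had none, and up to 5 genes of the trend. Other DEGs of a list, nes, KCNK5, ncam3 and ponzr3 in the plots, crygm2d11 beside the control libraries and the genes at single concentrations were named after their values were seen. The members and the 49 gene lists were chosen with earlier results of these data known. Alternatives were another tool, size factors and filters, a replicate block, other groupings and controls, and leave-outs of series, concentrations and single embryos. Leaving out sets of 2, 3 or 5 control libraries was chosen after seeing the data. Embryos are the replicates. The methods state 4 embryos per treatment, and 3 per concentration were analysed here. No genome coordinates or sequences are given.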

Additional observations from a re-analysis of the deposited data

Results flagged for a closer look

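In groups of 4 control embryos, a single embryo was flagged where its gap to the nearest other exceeded Dixon's 95% critical share of the group's range. Of 100 such groups examined over a selection of the named genes and gene groups, 9 were flagged. Chance alone flags about 1 in 20 where values are independent and normally spread. The selection holds related genes measured in the same embryos, CYP1A1, cyp1c1 and cyp1c2 among them, so that rate is no test here. Of these 9, 7 fell in the Disperse Blue 14 control, 5 of them in R1 and 2 in R2. Disperse Blue 14 control R1 was highest for CYP1A1 (1350 CPM), cyp1c1 (547 CPM) and cyp1c2 (86.1 CPM) and lowest for PFKFB4 (66.3 CPM) and for the mean level of the photoreceptor genes (2.51 as mean log2(CPM + 1)). Disperse Blue 14 control R2 was highest for the nuclear genes of complexes II to V (6.66) and for skeletal muscle genes (8.39), on the same scale. Disperse Red 9 control R4 was lowest for nt5c2l1 (36.1 CPM), and Solvent Yellow 33 control R3 was highest for alas2 (110 CPM). Among the exposed embryos, CYP1A1 differed between concentrations, with a slope of 0.53 on the log2 scale per doubling.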

How the results depend on the processing

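Of the 100 named DEGs of the pooled comparison, 23 (2 higher, 21 lower) were called under every alternative and every leave-out, and no named gene turned direction other than CYP1A1, cyp1c1 and cyp1c2. CYP1A1 turned to 0.16 with DESeq2, which replaces outlying counts in groups of this size, to 0.13 without Disperse Blue 14 control R1, to 1.46 without the 3 control libraries of high CYP1A1 and to 1.49 without all 5 libraries (libraries picked by this gene, so no test of it). cyp1c1 turned to 0.093, 0.099, 0.17 and 0.065 under the same settings, and cyp1c2 to 0.023 without the 3 libraries. Over its leave-outs of single embryos CYP1A1 ranged from -3.29 to 0.13 and cyp1c1 from -1.49 to 0.099.

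The pooled count of 617 was 316 with the replicate block, 378 without the Disperse Red 9 series, 1497 without the Solvent Yellow 33 series and 374 with 2 Solvent Violet 47 controls added. It was 338, 389 and 310 without the embryos at 1, 5 and 35.6 µM, 305 without the 2 outlying control libraries and 404 without all 5. Leaving out single embryos gave 315 (without Disperse Blue 14 control R2) to 985 (without the 50 µM embryo R4). The own-control count ranged from 73 to 6074 over its leave-outs (73 without own control R2, 1231 without R1, 6074 without R3), and was 0 without R1 and R2. Own against other controls ranged from 942 to 5071 (942 without R1, 963 without R2, 5071 without R3) and gave 29 without R1 and R2.

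At 1 µM, DESeq2 called 63 genes, the fit of that concentration alone with the controls 0, and the fit without the 5 libraries 134. At 5 µM the counts were 60 with DESeq2 and 136 without the 5 libraries. At 11.2 µM they were 39 with DESeq2, 0 with the replicate block, 0 alone with the controls and 84 without the 5. At 35.6 µM they were 357, 48, 5 and 710 in that order, and at 50 µM 27 with DESeq2 and 24 without the 5. Leave-outs gave 0 to 0, 0 to 5, 0 to 0, 0 to 18 and 0 to 5 genes from 1 to 50 µM. The trend called 35 genes with DESeq2 and 61 with the replicate block, and 1 to 180 over its leave-outs, the 180 without the 50 µM embryo R3. With the second index held constant DESeq2 called 11, and leave-outs 0 to 0. The cause of these shifts was not tested. Same-numbered embryos of different groups did not deviate together (mean correlation -0.02 over 80 pairs, against 0.01 for other numbers), and 5 of 27 embryos matched their own number best, so the numbers were not taken as pairs. Depth limits genes such as NR1D1, at 2 to 18 counts per exposed embryo.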
